A study of Mus musculus with 5 samples.

Results

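The 10 genes described here, Nrap, Xirp1, Xirp2, Dsp, Jup, Pkp2, Dsg2, Cdh2, Ctnna3 and Des, encode proteins of the cardiac intercalated disc and its desmosomes. They were chosen by symbol, with earlier results of these data known, and each matched 1 of the 49315 genes in the count tables. Poly-A RNA from frozen whole hearts of mice, labelled as mixed in cell type, had been sequenced in 5 libraries. The mice of 3 libraries had been kept for 18 weeks on food rich in fat and sucrose (HFHS), and those of 2 libraries on standard chow. Every mouse, chow included, had also received 1 intravenous dose of iron dextran 48 hours before the heart was rinsed with buffered saline and taken, so the comparison is between diets after iron and holds no group without iron. The labels used here give no strain, age or sex and do not say whether animals were pooled, so each p-value reflects the spread of these libraries only, and that spread may be technical.

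The intercalated disc joins heart muscle cells end to end. Its adherens junctions tie the actin of the last sarcomere to the neighbouring cell through N-cadherin and catenins, and its desmosomes tie the desmin filaments through desmogleins, plakoglobin, plakophilin and desmoplakin. In the heart both kinds of junction mix into a composite structure, and inherited defects of desmosomal genes are known for arrhythmogenic cardiomyopathy.

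All 10 genes passed the filter on low counts, with 176 to 24371 counts per library in tables that totalled 14362766 to 17774735 counts. In HFHS hearts 9 of the 10 rose and none fell, while Des did not pass. Of all 14221 genes tested, 38.1% were called at a Benjamini-Hochberg adjusted p of 0.05 by the quasi-likelihood test of edgeR, 19.4% higher and 18.7% lower. The groups did not overlap in the same 9 genes, with the HFHS libraries above the chow libraries, against 29.2% of all tested genes higher and 29.4% lower without overlap. The median log2 fold change (HFHS minus chow) of the 10 was 0.84, against -0.01 over all tested genes. As the 10 were chosen with earlier results of these data known, these contrasts are a description only. The rises were unequal, from 1.18-fold for Pkp2 to 2.63-fold for Ctnna3. Levels are given as CPM, counts scaled to a common library total after TMM adjustment.

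**Figure D1:**
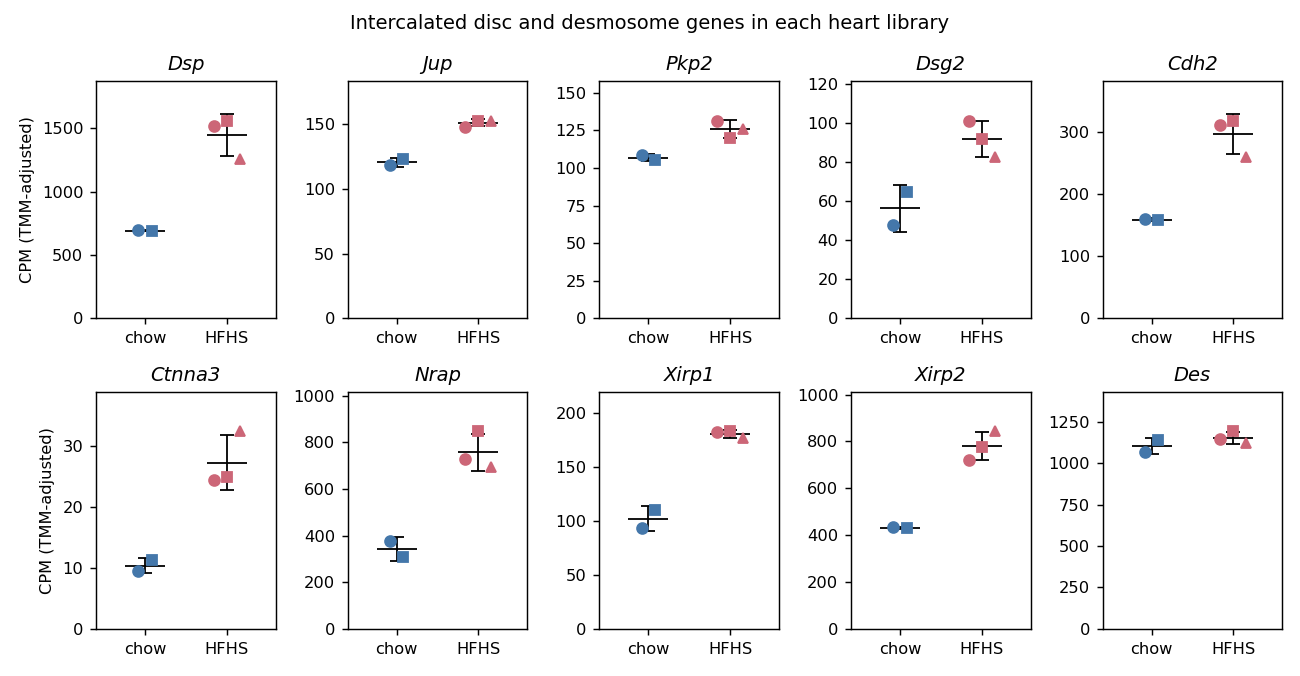
Each panel plots the CPM of 1 gene (vertical axis, from 0) in the 2 chow (blue) and 3 HFHS (red) libraries; marker shapes are replicates 1, 2 and 3, and black bars are the mean and SD. The HFHS points lie above both chow points in every panel except Des, where the groups overlap.

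Among the desmosomal genes, the rise was large for the plaque protein desmoplakin and small for the armadillo proteins. Dsp (ENSMUSG00000054889, chromosome 13 from 38151328 to 38198577, GRCm38) encodes desmoplakin, which links the desmosomal plaque to desmin filaments. It stood at 694 and 691 CPM in chow replicates 1 and 2 and at 1522, 1561 and 1259 CPM in HFHS replicates 1, 2 and 3. The chow libraries were nearly equal, HFHS replicate 3 was the lowest of its group, and all HFHS values were far above chow. The mean went from 692 ± 1.98 CPM (SD, n = 2) to 1447 ± 165 CPM (SD, n = 3), a fitted log2 difference of 1.06 (SE 0.0886) at an adjusted p of 7.91e-07 by edgeR.

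Dsg2 (ENSMUSG00000044393, chromosome 18 from 20558074 to 20604521) encodes desmoglein-2, the desmosomal cadherin that crosses the membrane. Its level was 47.8 and 64.8 CPM in chow and 101, 92.0 and 82.8 CPM in HFHS replicates 1 to 3. The chow libraries were further apart than for Dsp, but the lowest HFHS value was still above the higher chow value. The log2 fold change was 0.71 (SE 0.118), with an edgeR adjusted p of 0.000314.

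Jup (ENSMUSG00000001552, chromosome 11 from 100368958 to 100397763) encodes plakoglobin, an armadillo protein shared by desmosomes and adherens junctions. It was at 118 and 123 CPM in chow and at 148, 153 and 153 CPM in HFHS libraries, which were close together within each group. This was a log2 fold change of 0.33 (SE 0.0708), with an edgeR adjusted p of 0.00237. Pkp2 (ENSMUSG00000041957, chromosome 16 from 16213318 to 16272712) encodes plakophilin-2, the armadillo protein that organises the cardiac desmosomal plaque. It was at 108 and 105 CPM in chow and at 132, 120.2 and 126 CPM in HFHS libraries, a 1.18-fold rise with an edgeR adjusted p of 0.0200. Neither small rise held with offsets for exon length and GC content, described further on, where the adjusted p was 0.0788 for Jup and 0.162 for Pkp2. The Pkp2 call was also lost without chow replicate 2 (adjusted p = 0.0712) and without HFHS replicate 1 (adjusted p = 0.0858), in a range of 0.000434 to 0.275 over 18 alternatives.

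Both adherens junction members rose. Cdh2 (ENSMUSG00000024304, chromosome 18 from 16588877 to 16809246) encodes N-cadherin, the adhesion receptor of the disc's adherens junctions. It went from 161 and 158 CPM in chow to 312, 319 and 260.2 CPM in HFHS libraries. As for Dsp, the chow pair was tight and HFHS replicate 3 was the lowest of the HFHS libraries. The log2 fold change was 0.90 (SE 0.0891), with an edgeR adjusted p of 3.92e-06.

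Ctnna3 (ENSMUSG00000060843, chromosome 10 from 63430098 to 65003667) encodes alpha-T-catenin, which binds the cadherin-catenin complex to actin and also plakophilin-2. It had the fewest counts of the 10 genes, 176 and 203 in chow and 392, 349 and 481 in HFHS libraries. These corresponded to 9.53 and 11.3 CPM in chow and 24.5, 25.1 and 32.5 CPM in HFHS libraries, the reverse of Dsp and Cdh2 in that HFHS replicate 3 was the highest. Its 2.63-fold rise was the largest fitted among the 10 genes, a log2 difference of 1.39 (SE 0.142) at an adjusted p of 5.04e-06 by edgeR.

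The 3 actin-anchoring members rose 2.21-fold (Nrap), 1.77-fold (Xirp1) and 1.81-fold (Xirp2). Nrap (ENSMUSG00000049134, chromosome 19 from 56320035 to 56390037) encodes nebulin-related anchoring protein, which ties the ends of actin bundles to the disc. It was at 379 and 308 CPM in chow and at 730.1, 848 and 694 CPM in HFHS libraries. Both groups were spread, yet the lowest HFHS library stood well above the higher chow library. The log2 fold change was 1.14 (SE 0.101), with an edgeR adjusted p of 1.50e-06.

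Xirp1 and Xirp2 encode the Xin-repeat proteins, which bind and bundle actin at the disc. Xirp1 (ENSMUSG00000079243, chromosome 9 from 120013755 to 120023598) went from 93.9 and 110.3 CPM in chow to 182, 183 and 177 CPM in HFHS libraries, a log2 fold change of 0.82 (SE 0.0819) with an edgeR adjusted p of 3.92e-06. Xirp2 (ENSMUSG00000027022, chromosome 2 from 67446002 to 67526614) went from 434 and 428 CPM in chow to 722, 777 and 843 CPM in HFHS libraries, a log2 fold change of 0.86 (SE 0.0769) with an edgeR adjusted p of 1.65e-06. The HFHS libraries agreed closely for Xirp1 and were more spread for Xirp2.

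Des (ENSMUSG00000026208, chromosome 1 from 75360329 to 75368579) encodes desmin, the muscle intermediate filament protein that desmoplakin anchors. It stood at 1070.2 and 1139 CPM in chow and at 1145, 1193 and 1120 CPM in HFHS libraries, so the groups overlapped. The fitted ratio of HFHS to chow was 1.04 with a lower 95% bound of 0.945 and an upper bound of 1.15, and the edgeR adjusted p was 0.509. With library sizes alone as scaling, its log2 fold change was -0.03 (adjusted p = 0.717), and scaled to cardiomyocyte markers it was 0.27 (adjusted p = 0.00697), where the median of all genes was 0.20.

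Levels were compared between genes per kilobase of exon (RPKM). In chow hearts Des was highest at 294 ± 13.0 RPKM (SD, n = 2), followed by Dsp at 71.9 ± 0.206 RPKM, Nrap at 62.3 ± 9.14 RPKM and Xirp2 at 36.0 ± 0.332 RPKM. Pkp2 and Cdh2 could not be separated in chow hearts, with ranges over libraries that met at 19.6 to 20.2 and 19.6 to 19.9 RPKM, and those of Jup and Xirp1, at means of 18.7 and 17.5 RPKM, also met. Dsg2 at 6.81 RPKM and Ctnna3 at 1.44 RPKM came last. In HFHS hearts the order of the 4 highest levels was the same by mean, at 307, 150.4, 138 and 65.2 RPKM, but Dsp and Nrap now overlapped. Cdh2 at 36.8 RPKM and Xirp1 at 31.0 RPKM were then above Pkp2 and Jup, which were both at 23.5 RPKM. Exon length here joins the exons of all annotated isoforms, so the level of a gene with rarely used exons is understated.

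Ratios of 2 genes within a library do not depend on how libraries are scaled, and they describe the unequal change. They do not remove the trend on exon length described further on. Dsp, at 9625 exon bases, is longer than Jup (6436), Pkp2 (5360) and Des (3754), and the part of gene length in the ratios was not tested. These 12 ratios were chosen after the values were seen. Per kilobase, there were 3.92 and 3.75 Dsp counts for each Jup count in the chow libraries and 6.88, 6.83 and 5.51 in the HFHS libraries. The ratio of Dsp to Pkp2 went from 3.56 and 3.66 in chow to 6.44, 7.23 and 5.56 in HFHS libraries. The proportions of these desmosomal messages thus differed between the groups without overlap.

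The same held against desmin. Dsp per Des was 0.253 and 0.236 in chow and 0.519, 0.511 and 0.438 in HFHS libraries. Nrap per Des was 0.241 and 0.184 in chow and 0.435, 0.484 and 0.423 in HFHS libraries. Against 3 sarcomere genes, the mean ratio of Dsp in HFHS over that in chow was 2.37 for Tnnt2, 1.83 for Actc1 and 1.17 for Myh6, the main adult myosin gene, which itself rose 1.76-fold. Xirp2 per Xirp1 was 2.25 and 1.89 in chow and 1.93, 2.07 and 2.32 in HFHS libraries, and the groups overlapped. Of the 12 ratios it was the only one that did, with an exact permutation p of 0.8. Each of the others had an exact two-sided permutation p of 0.2. That is the smallest that this test, which doubles the smaller tail, can give for 3 libraries against 2. For Dsp per Myh6 the groups hardly separated, at 0.0393 in chow replicate 1 and 0.0394 in HFHS replicate 3. For Dsg2 per Jup the nearest values were 0.410 in chow replicate 2 and 0.422 in HFHS replicate 3. As the ratios were picked after the values were seen, the number without overlap is a description only. The share of all gene pairs without overlap was not computed. Of all single genes tested, 29.2% were higher and 29.4% lower without overlap.

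**Figure D2:**
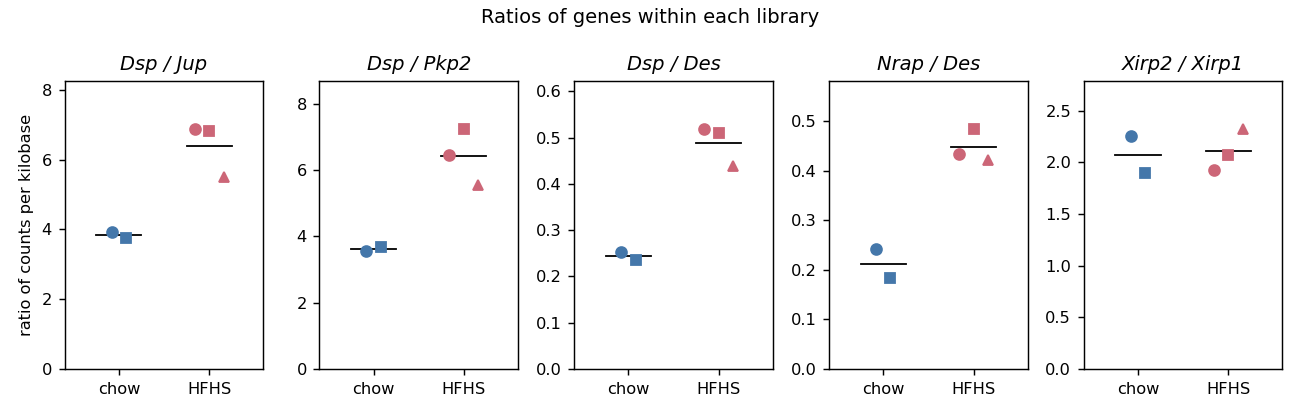
Each panel plots the ratio of 2 genes' counts per kilobase of exon (vertical axis, from 0) in each chow (blue) and HFHS (red) library, with the group mean as a black line. Dsp per Jup rises from a mean of 3.84 to 6.41, whereas the means of Xirp2 per Xirp1 are 2.07 and 2.11 with overlapping points.

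Fold changes followed gene length over all tested genes, with a rank correlation of 0.430 between exon length and log2 fold change, described here without a p because genes are not independent. Most of the 10 genes are long, from 3754 exon bases for Des to 11979 for Xirp2, with a median of 6832 against 4009 over all tested genes. Among 10 equal bins of all tested genes by exon length, the bin of Dsp and Xirp2 had a median log2 fold change of 0.32 and 48.3% of its genes were called higher. The bin of Nrap and Pkp2 had a median of 0.08 with 21.9% called higher, and that of Dsg2, Cdh2 and Ctnna3 had a median of 0.21 with 36.1% called higher. Each of Dsp, Dsg2, Cdh2, Ctnna3, Nrap, Xirp1 and Xirp2 was above the upper quartile of its bin, whereas Jup, Pkp2 and Des lay inside the middle of theirs. The part of gene length in these differences was not tested.

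**Figure D3:**
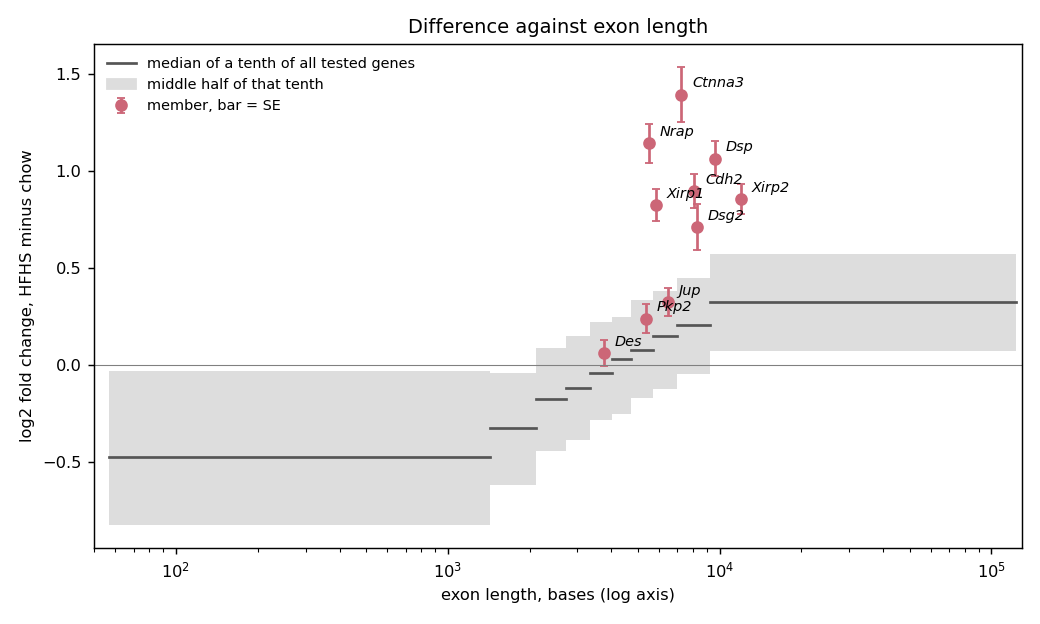
Log2 fold change (HFHS minus chow, vertical axis) is plotted against exon length in bases (log axis) for the 10 genes (red, bar = SE), over the median (line) and interquartile range (grey) of 10 equal bins of all tested genes. The bin medians climb from -0.47 in the shortest genes to 0.32 in the longest, and 7 of the 10 genes lie above the grey band.

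With per-library offsets that remove the trend on exon length and GC content, 7 of the 10 genes rose and none fell, against 15.9% of all genes called higher and 15% lower. Those 7 were Ctnna3, Nrap, Dsp, Cdh2, Xirp1, Xirp2 and Dsg2. The log2 fold change of Ctnna3 was then 1.23, of Nrap 1.03, of Dsp 0.79 and of Cdh2 0.72. That of Xirp1 was 0.70, of Xirp2 0.58 and of Dsg2 0.51. The edgeR adjusted p of these 7 genes lay between 6.15e-06 and 0.00334.

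**Figure D4:**
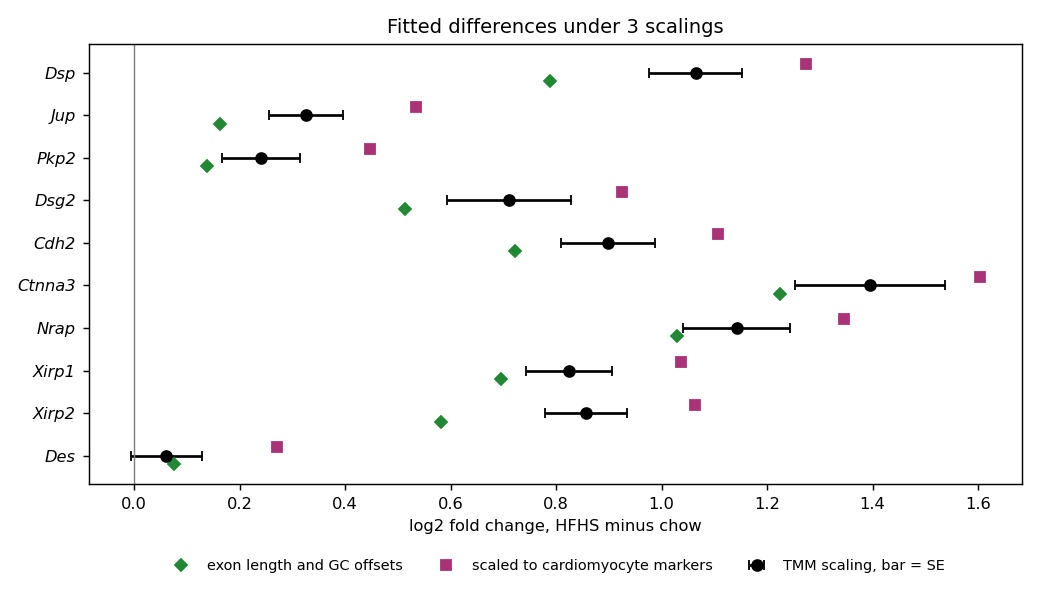
Log2 fold change (HFHS minus chow, horizontal axis) of the 10 genes with TMM scaling (black, bar = SE), with exon length and GC offsets (green) and with libraries scaled to cardiomyocyte markers (purple). Jup moves from 0.33 to 0.16 with the offsets, while the smallest of the 3 values is 0.79 for Dsp, 1.03 for Nrap and 1.23 for Ctnna3.

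Because whole hearts were sequenced, fewer cells of a type and less RNA per cell cannot be told apart. The summed level of 14 cardiomyocyte markers was 83050 to 90036 CPM in chow and 84963 to 87926 CPM in HFHS libraries, so the groups overlapped; 4 of the markers rose and 8 fell. Myh6 decided that overlap: without it, a sum taken after seeing the data, the other 13 markers summed to 70950.7 and 74506.6 CPM in chow and to 63590.3, 64045.9 and 64261.8 CPM in HFHS libraries, lower and with no overlap. Of all tested genes 19.4% rose and 18.7% fell. The 14 markers had a median exon length of 2272 bases, against 4009 over all tested genes. With the length and GC offsets 6 of them were higher and 5 lower, at a median log2 fold change of -0.04. The part of gene length in the marker sums was not tested. Scaled to these markers, all 10 genes were called higher, as were 33% of all genes, with 9.43% lower. The 10 fibroblast markers and the 10 macrophage markers all fell, as did 7 of 10 endothelial markers; their summed levels went from 2491 to 2568 CPM in chow to 1738 to 1749 CPM in HFHS libraries for fibroblasts, and from 477 to 551 to 181 to 213 CPM for macrophages. The summed endothelial markers went from 2580.2 to 2848 CPM to 1600 to 1625 CPM, and the 7 red blood cell markers, which all fell, from 1487 to 1703 CPM to 250.4 to 524 CPM. Of 10 pericyte and smooth muscle markers 1 rose and 3 fell, at 1476 to 1477 and 1297 to 1355 CPM. The part of these cell types in the results was not tested.

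Skeletal muscle, which also expresses Nrap, Xirp1, Xirp2 and Des, was near 0: its 11 markers summed to 3.43 to 4.10 CPM in chow and 2.79 to 3.48 CPM in HFHS libraries, and Myh2, Myh4, Pvalb and Myf6 had no count in any library. Lining cells also carry desmosomes. The 12 mesothelial and epithelial markers summed to 7.54 to 9.81 CPM in chow and 10.2 to 14.2 CPM in HFHS libraries, and their part in the members' values was not tested. Of its 4 tested markers 3 rose. Among them Msln, named after its value was seen, had 0 counts in both chow libraries, which allows up to 0.169 and 0.173 CPM. Msln was at 1.44 to 1.55 CPM in HFHS libraries. Krt5 and Epcam had no count in any library.

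The members' partners were read from lists of known disc genes. Of 22 junction partners 14 rose, 3 fell and 5 did not pass, with a median log2 fold change of 0.35. For this list and those that follow, the shares over all tested genes were 19.4% higher and 18.7% lower. Vcl, which encodes vinculin, the protein that reinforces the link of catenins to actin under tension, had the smallest p of the list: it went from 29.0 and 23.3 CPM in chow to 79.0, 77.4 and 81.3 CPM in HFHS libraries, 3.03-fold, with an edgeR adjusted p of 7.31e-08. Lmo7, a LIM-domain protein of adherens junctions, rose 1.62-fold. Its log2 fold change went from 0.70 to 0.38 with the length and GC offsets and still passed. Lower genes were Afdn, the afadin of nectin junctions (1.18-fold lower, adjusted p = 0.0348), and the connexin genes Gjc1 (1.26-fold lower, adjusted p = 0.0482) and Gja5 (1.35-fold lower, adjusted p = 0.0483, named after its value was seen). All 3 were near the threshold, and none of the list fell without HFHS replicate 2, without HFHS replicate 3 or when scaled to cardiomyocyte markers. After both offsets the list had 10 higher and 3 lower genes, and the log2 fold change of Afdn was -0.53.

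Close relatives of the members did not all move with them; the genes compared here were picked after their values were seen. Ctnna1, alpha-E-catenin, which does the same task as Ctnna3 in most tissues, rose 1.22-fold with an edgeR adjusted p of 0.0258, a call lost in 5 of 18 alternatives (adjusted p up to 0.252). Ctnna3 per Ctnna1 was 0.0140 and 0.0133 in chow and 0.0247, 0.0266 and 0.0379 in HFHS libraries. Ctnnb1, the beta-catenin gene and closest relative of Jup, was at 295 and 245 CPM in chow and 288, 291 and 275 CPM in HFHS libraries, with an adjusted p of 0.498. Dsc2, the desmocollin that pairs with Dsg2, rose 1.39-fold with an adjusted p of 0.00389. Gja1, which encodes the main ventricular connexin, was at 393 and 402 CPM in chow and 441, 412 and 303 CPM in HFHS libraries and did not pass, with an adjusted p of 0.792.

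Of 27 tested genes among 28 actin and Z-disc partners, 13 rose, 5 fell and 9 did not pass, with a median log2 fold change of 0.29. Flnc, the muscle filamin that Xin proteins bind, went from 149 and 189 CPM in chow to 307, 346 and 349 CPM in HFHS libraries, 1.97-fold with an edgeR adjusted p of 4.26e-06. Cmya5, a large Z-disc protein, rose 1.65-fold, and its log2 fold change went from 0.72 to 0.40 with the length and GC offsets and still passed. Csrp3, which encodes the muscle LIM protein, was 1.40-fold lower and Myoz2, whose product tethers calcineurin at the Z-disc, 1.42-fold lower, with edgeR adjusted p of 5.10e-05 and 0.000232. The other 3 that fell, named after their values were seen, were Smpx, Lims2 and Fhl2; after the length and GC offsets they did not pass. With those offsets 15 genes of the list were higher and 3 lower, Csrp3, Myoz2 and Parva. Parva, named after its value was seen, had a log2 fold change of -0.33 with the offsets. Without them it was -0.05 and did not pass.

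Of 9 tested genes among 12 intermediate filament partners, 4 rose, 2 fell and 3 did not pass, with a median log2 fold change of 0.16. Plec, the plectin gene, whose product crosslinks desmin to Z-discs and junctions, went from 96.3 and 106 CPM in chow to 239, 268 and 258 CPM in HFHS libraries, 2.52-fold with an edgeR adjusted p of 6.59e-08. Dst, a plectin relative of 41155 exon bases, rose 2.15-fold; its log2 fold change went from 1.10 to 0.48 with the length and GC offsets and still passed. Vim, the vimentin of non-muscle cells, was 1.57-fold lower, and Lmna, the nuclear lamin A gene, 1.18-fold lower. The marker lists of fibroblasts, endothelium and macrophages had median log2 fold changes of -0.50, -0.43 and -1.36, and their part in the Vim value was not tested. The call of Lmna, with an adjusted p of 0.0351, was lost in 6 of 18 alternatives.

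**Figure D5:**
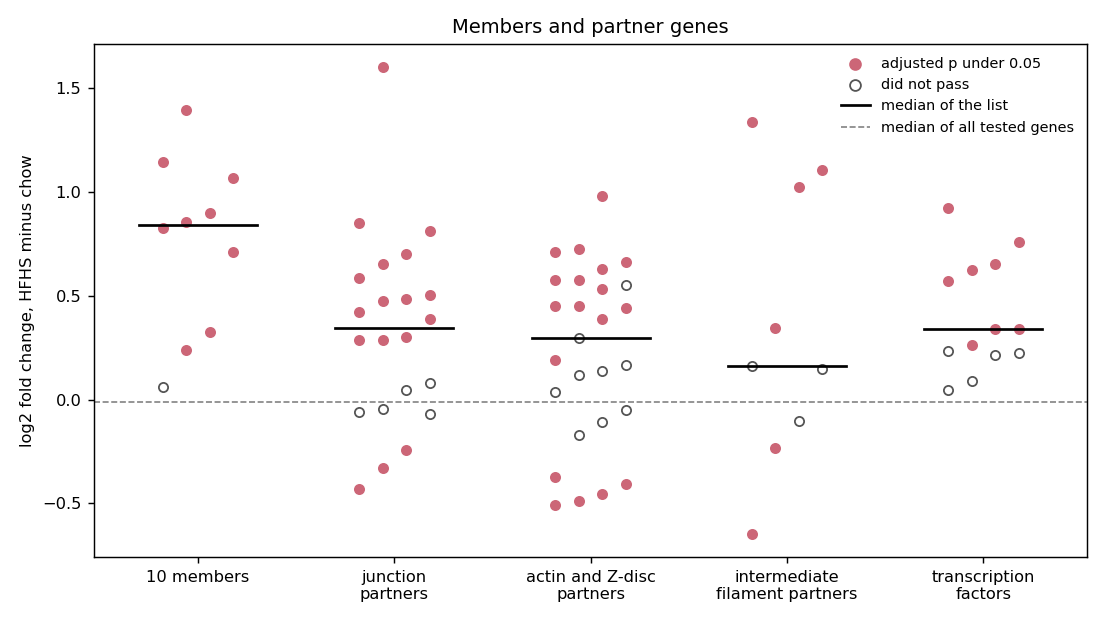
Log2 fold change (HFHS minus chow, vertical axis) of each tested gene among the 10 members and 4 partner lists; filled points passed an edgeR adjusted p of 0.05, black lines are list medians and the dashed line is the median of all tested genes. The medians are 0.84 for the members and 0.35, 0.29, 0.16 and 0.34 for the lists from left to right.

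Of 13 transcription factors known for heart muscle genes 8 rose, none fell and 5 did not pass, with a median log2 fold change of 0.34. Over all tested genes 19.4% rose and 18.7% fell. Tead1, which binds MCAT elements of muscle genes, went from 98.4 and 113 CPM in chow to 179, 175 and 181 CPM in HFHS libraries, 1.69-fold with an edgeR adjusted p of 5.94e-06. Myocd, the coactivator of serum response factor, rose 1.90-fold from 19.5 and 22.9 CPM to 39.9, 40.1 and 40.7 CPM. Members of the MEF2 family, picked after their values were seen, were uneven: Mef2d rose 1.57-fold and Mef2a 1.26-fold, while Mef2c did not pass with an adjusted p of 0.0519. After both offsets the fitted difference on the log2 scale was 0.51 for Mef2d and 0.01 for Mef2a, which no longer passed. That of Tead1 went from 0.76 to 0.40 and that of Myocd from 0.92 to 0.77, and both still passed.

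Promoter sequence was searched for 6 of the 10 genes from a RefSeq table (GRCm38.p6), as 8 windows of 250 bases before a start site. No window of Xirp1, Pkp2, Dsg2 or Cdh2 was searched. Dsg2 and Cdh2 were left out by a filter on gene location, which was not applied to the windows used for comparison. Whether the promoters of these genes hold a match was not tested. Xirp2, Nrap and Dsp are shown because, of the genes that rose, they had the highest levels per kilobase; capitals mark a match to MEF2, the CArG box of serum response factor, MCAT (CATTCC) or the motif of GATA factors (AGATAA), searched on both strands. The windows are chr2:67445752-67446001 (plus strand) for Xirp2, chr19:56390039-56390288 (minus strand) for Nrap and chr13:38151044-38151293 (plus strand) for Dsp, each printed 5′ to 3′ on the strand of the gene.
Xirp2: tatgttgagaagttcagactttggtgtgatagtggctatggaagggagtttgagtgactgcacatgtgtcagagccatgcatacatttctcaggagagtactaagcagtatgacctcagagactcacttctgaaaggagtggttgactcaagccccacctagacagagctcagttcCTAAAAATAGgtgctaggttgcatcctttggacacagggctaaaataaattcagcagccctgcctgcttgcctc
Nrap: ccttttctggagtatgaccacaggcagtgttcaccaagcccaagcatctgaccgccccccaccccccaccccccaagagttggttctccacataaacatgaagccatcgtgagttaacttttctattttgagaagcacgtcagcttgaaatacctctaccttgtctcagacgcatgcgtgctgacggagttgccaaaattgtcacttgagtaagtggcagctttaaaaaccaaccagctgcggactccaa
Dsp: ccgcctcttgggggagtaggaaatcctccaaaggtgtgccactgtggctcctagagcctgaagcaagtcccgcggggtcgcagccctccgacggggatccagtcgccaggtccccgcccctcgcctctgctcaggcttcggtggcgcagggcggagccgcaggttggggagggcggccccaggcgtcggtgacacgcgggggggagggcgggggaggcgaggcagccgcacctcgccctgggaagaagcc
The Xirp2 window held 1 MEF2 match, CTAAAAATAG, from -74 to -65 before the start site. The motif was found in 1.69% of 32851 windows of the same length, and in 1 of the 8 windows of these genes. The Nrap and Dsp windows had no match to any of these 4 motifs. Nrap had 3 matches to the E-box (CANNTG, not in capitals), Xirp2 had 2 and Dsp had 0. An E-box was found in 4 of the 8 windows of these genes and in 66.2% of all windows. None of the 8 windows held a CArG box, found in 1.47% of all windows; 1 Ctnna3 window held an MCAT match, found in 12.6%. A match is a description of these letters only.

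The genes with the pattern nearest to the mean of the 10 members were taken from 10042 other genes at a mean of at least 4 CPM, by the root mean square distance of centred log2 CPM over the 5 libraries. They were Prkar2a, a regulatory subunit of protein kinase A, at a distance of 0.0146, Dag1, which encodes dystroglycan, at 0.0175, and Ncor1, a nuclear receptor corepressor, at 0.0220. Dag1 went from 206 and 222 CPM in chow to 360.0, 369 and 346 CPM in HFHS libraries. Among the members themselves Xirp1, at a distance of 0.0660, was nearest to that mean and Ctnna3, at 0.338, and Des, at 0.336, were farthest. With 5 libraries in 2 groups, these distances mostly reflect the size of the difference between the groups.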

How the data were processed

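Tables of raw counts per gene were deposited, 1 per library; per the file headers they also give exon coordinates, strand and exon length. The submitters' processing notes list Trimmomatic (0.36), STAR (2.5.2b), featureCounts, Subread (1.5.2) and the build GRCm38. The sources used here give no run options, strandedness or gene annotation version. Reads of overlapping genes may therefore be shared: 268 exon bases of Nrap also belong to Habp2 and 465 of Dsp to Gm10129, both with at most 112 counts per library. Symbols came from GENCODE M21 (GRCm38), which held 49056 of 49315 genes.

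Counts were tested in R 4.3.3 by edgeR 4.0.16 (filterByExpr, TMM, glmQLFit and glmQLFTest on diet; Benjamini-Hochberg adjusted p of 0.05 over 14221 genes). SE was taken from the fitted coefficient and its F statistic and is approximate. Marker sums use CPM of total counts. Alternatives were DESeq2 1.42.0, limma-voom (limma 3.58.1), other size factors and filters, leaving out mitochondrially encoded genes or each library, a replicate block, a threshold of 0.01, and library offsets fitted with mgcv 1.9.3 as a smooth function of exon length, alone or with GC content. A count of 0 allows up to 0.169 to 0.209 CPM (3 counts), for counting error only. No 2 libraries agreed within sampling noise, since the chi-square of their counts per degree of freedom was 2.23 or more. The scripts were tested on simulated data. Most calls made without offsets were false there once a trend on exon length was added to all genes. Offsets lowered that share but left a larger one than in data simulated without a trend. Few genes were given a true change and every other call counted as false, so these shares depend on that setting. They do not give the share of false calls in the data described here.

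Members and lists were chosen with earlier results of these data known. Named partners are the 2 with the smallest p in each direction per list. Other partners and markers that were named for their values are marked as picked later.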

Additional observations from a re-analysis of the deposited data

How the results depend on the processing

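Under 18 alternatives, Dsp, Dsg2, Cdh2, Ctnna3, Nrap, Xirp1 and Xirp2 kept their direction and passed, with log2 fold changes of at least 0.50 (Dsg2). Jup lost its call in 3 alternatives, all with length offsets, and Pkp2 in 6; the cause was not tested. The log2 fold change of Des was -0.03378 with library sizes alone. Scaling to cardiomyocyte markers moved the counts of higher and lower genes from 2756 and 2661 to 4690 and 1341, and moved the median log2 fold change of all genes from -0.01 to 0.20, while library sizes alone moved it to -0.11 with 2053 higher and 3429 lower; at an adjusted p of 0.01, 1729 genes were lower. Counts of partners do not say that the genes were the same. The count of higher junction partners went from 14 to 9 with exon length offsets. That of lower junction partners went from 3 to 0 with cardiomyocyte markers, the replicate block or the 0.01 threshold, and to 1 with size factors by relative log expression or DESeq2. The count of lower actin and Z-disc partners went from 5 to 3 with cardiomyocyte markers (Csrp3, Myoz2 and Smpx) and to 3 with length and GC offsets (Csrp3, Myoz2 and Parva, the last not among the 5). That of lower intermediate filament partners went from 2 to 1 with cardiomyocyte markers, DESeq2 or the 0.01 threshold. Leaving out each library gave 8 to 9 higher members and 0 lower, 10 to 14 higher and 0 to 2 lower junction partners, 12 to 14 and 4 to 5 actin and Z-disc partners, 3 to 4 and 1 to 2 intermediate filament partners, 6 to 8 higher and 0 lower transcription factors, and 2207 to 2574 higher and 2041 to 2355 lower genes in all. Leaving out a chow library leaves 1 chow sample, assumed to vary like the other group.

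The labels do not say whether the replicate numbers pair the libraries. Deviations from the group means correlated at 0.0348 for the libraries numbered 1 and 0.0258 for those numbered 2. With 2 chow libraries, whose deviations mirror each other, these values cannot show whether libraries were paired. With the replicate block, on 1 residual degree of freedom, 2753 genes were higher and 2579 lower, and 9 members rose and none fell. HFHS replicate 3 has no chow library of its number, so that fit takes the diet difference from replicates 1 and 2 only. It is thus close to leaving out HFHS replicate 3: the log2 fold change of Dsp was 1.155 with the block and 1.159 without that library. The order of the 10 members' levels per kilobase, by the mean over all 5 libraries, was the same without TMM factors. As a TMM factor scales all genes of a library alike, the order within a library could not change. Counting depth limits Ctnna3 most, with 176 counts in its lowest library.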

Other observations

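Most desmosomal genes known from surface epithelia had too few counts to test in these hearts. Of 10 such genes (Dsc1, Dsc3, Dsg1a, Dsg1b, Dsg3, Dsg4, Pkp1, Pkp3, Ppl and Evpl) 2 had enough counts to test, and Dsg1b and Pkp1 had no count in any library. The 2 tested genes, Ppl and Evpl, were named after their values were seen, as was the comparison of Ppl with Dsp, Dst and Plec. Ppl, which encodes periplakin, a plakin related to desmoplakin, was at 6.44 and 7.55 CPM in chow and at 9.74, 11.6 and 10.9 CPM in HFHS libraries. It rose 1.54-fold with an edgeR adjusted p of 0.00490, in the same direction as Dsp, Dst and Plec of the same protein family. Evpl, the envoplakin gene, was at 0.433 and 0.49993 CPM in chow and at 0.687, 0.861 and 1.35 CPM in HFHS libraries and did not pass, with an adjusted p of 0.114.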
